A study of Rattus norvegicus with 20 samples.

Results

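A 2 Mb interval of rat chromosome 18, from 29 Mb to 31 Mb of build rn4, was examined with all CpG island array probes that start inside it. Membership was set by position alone, but the interval itself was chosen with earlier results of these data known. The interval held 293 of the 93024 probes of the array design, and 283 of these passed the filter on input signal that left 91599 probes in all. Probes that started at most 500 bases apart were joined into runs, which gave 61 runs, and the 44 runs of at least 3 probes are called regions here and are numbered 1 to 44 along the chromosome. They were set against the 343 regions of the rest of chromosome 18 and the 13556 regions of the whole array. The 17 runs of 1 or 2 probes are described probe by probe.

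The interval was expected to hold clustered protocadherin genes, which lie in large tandem arrays in mammalian genomes. They encode cell surface adhesion proteins best known from neurons, where each cell uses its own small choice among the many members. Many members have their own promoter and CpG island, and DNA methylation at these promoters is known to go with the member being silent. The array files name no genes and give only rn4 coordinates, and the gene table used here belongs to another build, GRCr8. That table places 1 Pcdha, 22 Pcdhb and 16 Pcdhg entries on chromosome 18 and was used for these names alone. Whether those genes lie inside this interval of rn4 was not checked, so regions are given by position only.

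Each of the 20 samples was hybridised to 1 array: 4 normal mammary glands and 16 radiation-induced mammary carcinomas of female F1 hybrids between Sprague-Dawley and Copenhagen rats. The labels give 1 treatment text to all samples, in which rats stayed untreated or, aged 7 weeks, received 4 Gy of whole-body caesium gamma rays at a rate of 0.5 Gy/min, and they do not say whether the normal glands came from irradiated rats. Cy5 carried DNA pulled down with a protein that contains a methyl-CpG-binding domain, and Cy3 the matching input DNA, on all 20 arrays. The labels number the samples and name no animals. The p-values therefore reflect variation among samples, some of which may be technical, and in whole tissue a change within cells and a change in the mix of cells cannot be told apart. Carcinomas 7 and 8 carry one code in their descriptions and another in the names of their scanner files, and leaving both out moved none of the region and probe counts below by more than 1.5 times.

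Values are given on 2 scales. The log2 ratio is log2 of processed Cy5 over processed Cy3 with the median of the array set to 0, and it measures enrichment by the pull-down, not a percentage of methylated molecules. The top of this scale differed between the groups all over the array: the most frequent value among the highest 15% of regions lay at 4.68 ± 0.82 on the log2 scale in the normal glands (SD, n = 4) and at 2.72 ± 0.49 in the carcinomas (SD, n = 16). Each array was therefore also put on a linear position, on the unlogged ratio, where 0 is the most frequent value of all regions of that array and 1 is the most frequent value of its highest 15%. In the interval, Cy5 was well above background for 74.7% to 91.8% of probes in the normal glands and 70.0% to 96.9% in the carcinomas, and 0 values were saturated.

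Probes were unevenly spread over the interval. Taking runs that start at most 20 kb apart, 3 dense stretches of at least 5 runs stood out, and these were defined from positions after the coordinates had been seen. Stretch 1 (chr18:29435158-29501306) held 7 runs, all of them regions. Stretch 2 (chr18:29663289-29749641) held 20 runs with a median spacing of 5.28 kb, of which 11 were regions. Stretch 3 (chr18:30568858-30676249) held 18 runs with a median spacing of 5.19 kb, of which 13 were regions. The array had 261 such stretches, and only 11 held 15 runs or more. Stretch 2 ranked 4 and stretch 3 ranked 8 by number of runs, and the next on chromosome 18 had 11 runs. The other 13 regions lay outside the stretches. Between region 25 (chr18:29884111-29885296) and region 26 (chr18:30543273-30543831), a span of 657976 bases, the array carried 3 single probes and no region.

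**Figure D1:**
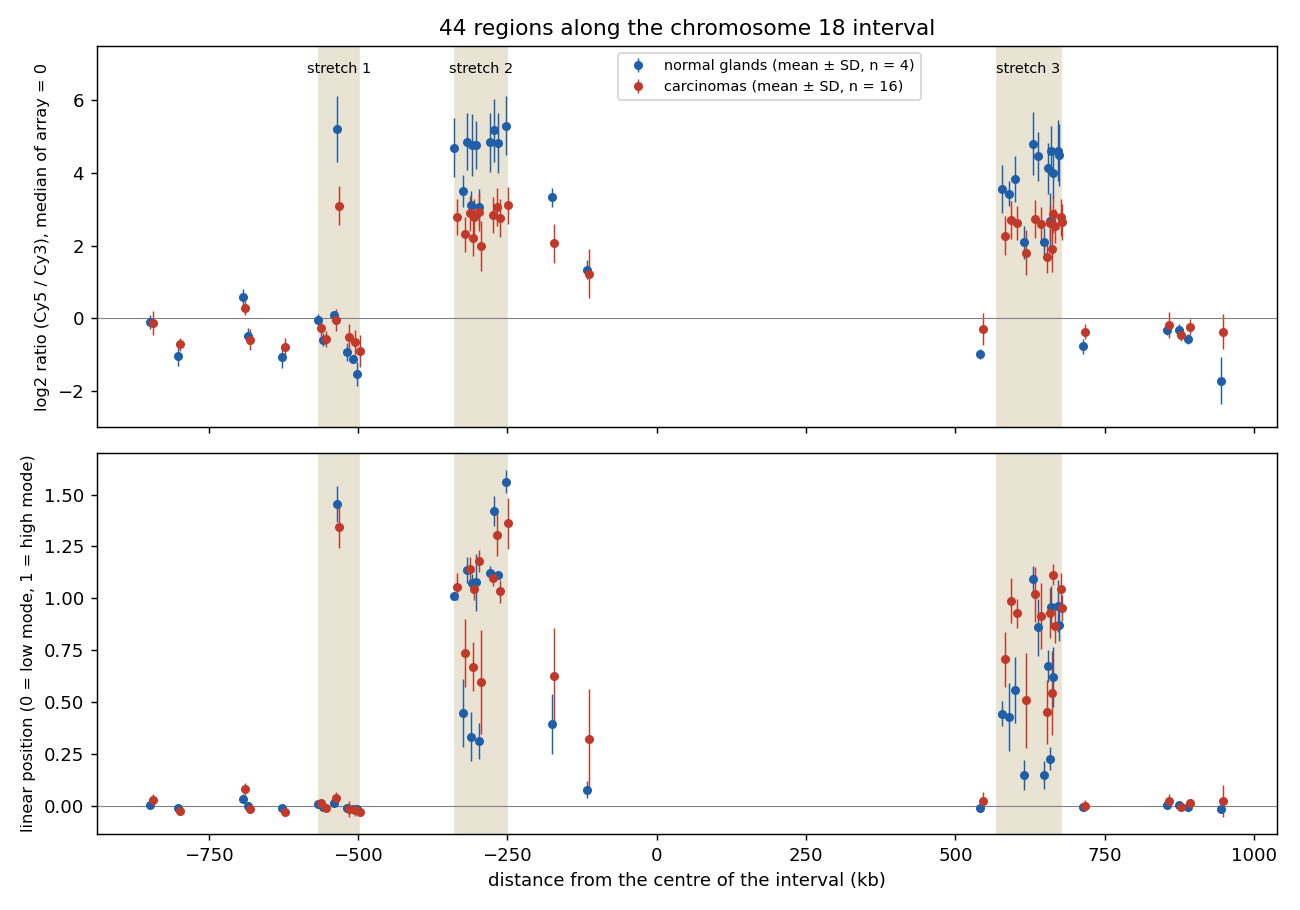
Mean log2 ratio (top) and mean linear position (bottom) of the 44 regions against distance from the centre of the interval in kb, with SD over 4 normal glands (blue) and 16 carcinomas (red); shaded bands are the 3 dense stretches. Stretches 2 and 3 hold most of the high regions, while stretch 1 holds 1 high region at a normal gland mean of 5.21 among 6 low ones.

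The interval was rich in highly enriched regions already in the normal gland. The normal gland mean lay above a linear position of 0.5 in 17 of 44 regions, or 38.6%, against 12.0% of the 343 other regions of chromosome 18 and 12.2% of all 13556 regions. In the carcinomas 25 of 44 regions, or 56.8%, lay above 0.5, against 18.4% in the rest of the chromosome. These shares are descriptions of the arrays and were not tested.

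The high regions were those of stretches 2 and 3. In stretch 2 the normal glands averaged over 0.5 in 8 of 11 regions and the carcinomas in 11 of 11. In stretch 3 the counts were 8 of 13 and 12 of 13. Stretch 1 had 1 high region of 7 in either group, and outside the stretches no region of 13 was high in the normal glands and 1 was high in the carcinomas. By rank within an array, the median normal gland region of stretch 2 stood at the 96.8th percentile of all regions, that of stretch 3 at the 89.7th and that of stretch 1 at the 27.8th.

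Levels changed from high to low over a few kilobases. Region 8 (chr18:29461170-29461683) had a normal gland mean linear position of 0.0152, and region 9 (chr18:29466320-29466721), 4636 bases further on, had 1.46. Regions 16 (chr18:29691012-29691192) and 17 (chr18:29692828-29693206) were 1635 bases apart at 0.335 and 1.07. Regions 35 (chr18:30660118-30660439) and 36 (chr18:30661914-30662466) were 1474 bases apart at 0.229 and 0.958. In all 3 of these pairs the carcinoma means kept the same order, at 0.0411 and 1.35, at 0.672 and 1.05, and at 0.544 and 1.12. The step was smaller in the carcinomas in each pair, 0.373 against 0.738 for regions 16 and 17, for example. Pairs were picked after their values were seen.

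**Figure D2:**
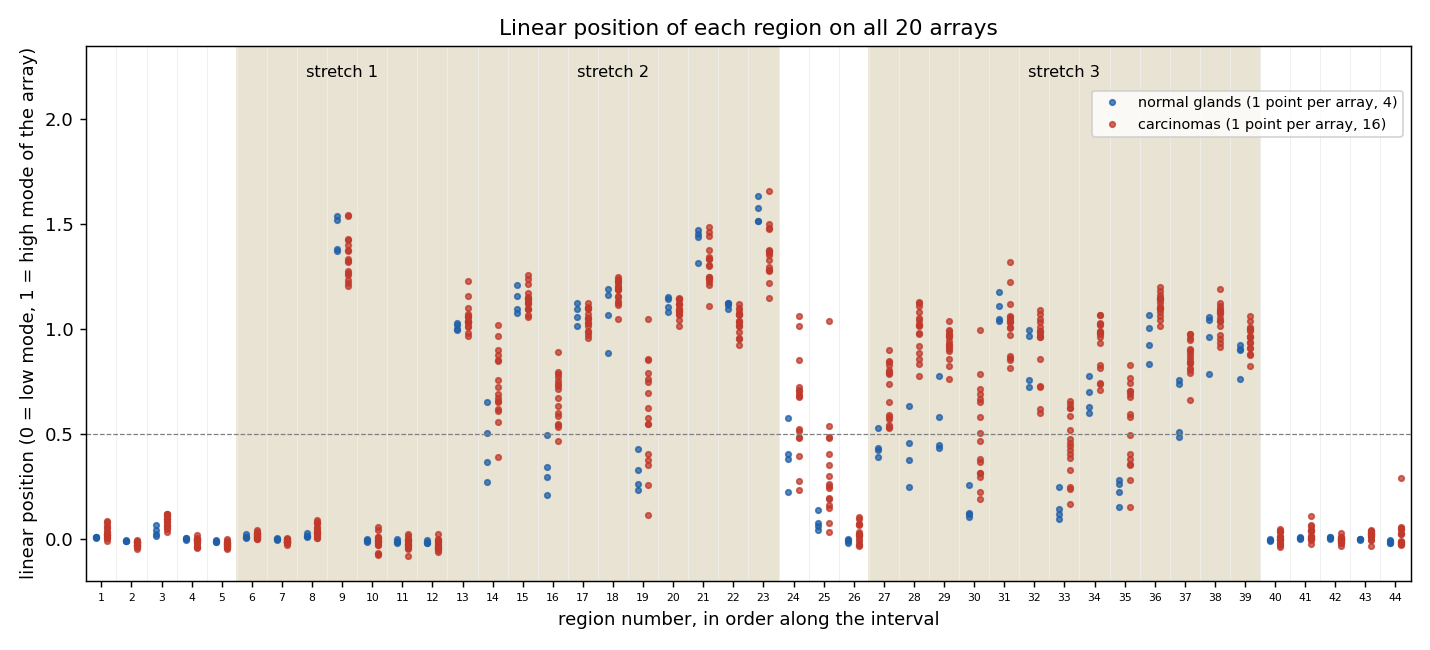
Linear position of each of the 44 regions in order along the interval, 1 point per array, for 4 normal glands (blue) and 16 carcinomas (red). Regions at the ends of the interval and in stretch 1 lie near 0 apart from region 9; in region 28 all 16 carcinomas, from 0.775 upward, lie above the normal glands, which end at 0.635.

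Carcinomas were compared with normal glands first on the log2 ratio, with limma across all 13556 regions and a call at a Benjamini-Hochberg adjusted p under 0.05. Of the 44 regions, 23 fell in the carcinomas and 6 rose. Over the whole array 23.7% of regions were called lower and 11.6% higher, and in the rest of chromosome 18 the counts were 62 lower and 35 higher of 343. The median difference, carcinoma minus normal gland, was -0.84 in the interval and 0.02 over all regions. In 16 of 44 regions all 16 carcinomas lay below all 4 normal glands, which held for 15.6% of all regions.

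The 23 regions that fell had normal gland means from 0.312 to 1.56 on the linear position. All 11 regions of stretch 2 fell, as did 10 of 13 in stretch 3, region 9 in stretch 1 and region 24 (chr18:29826308-29827016). Among the 18 interval regions with a mean position over 0.8 across all 20 arrays, 18 fell, and the same call was made for 97.3% of all regions of that level and for 31 of 31 in the rest of the chromosome.

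The largest fall was in region 23 (chr18:29749393-29749641), which also had the highest normal gland mean of the interval. Its log2 ratio was 6.43, 4.49, 5.31 and 5.00 in normal glands 1 to 4 and ran from 2.23 through a median of 3.29 to 4.05 in the carcinomas. All 16 carcinomas lay below all normal glands. The difference was -2.19 ± 0.30 (SE, adjusted p = 2.0e-05). Regions 21 (chr18:29730392-29730645), 9, 22 (chr18:29736314-29736552) and 31 (chr18:30630951-30631328) followed at -2.11, -2.11, -2.07 and -2.07, each with adjusted p = 2.2e-05 or less and with all 16 carcinomas below all normal glands.

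None of these 5 regions passed the test on the percentile within the array. The mean percentile was 99.5 in the normal glands and 99.6 in the carcinomas for region 9, 99.7 and 99.6 for region 23, and 99.4 in both for region 21, values near the end of that scale. It was 97.2 and 95.3 for region 22 and 96.9 and 94.5 for region 31 (adjusted p = 0.22 and 0.38). Direction also depended on the normalisation: after loess within each array regions 23, 21, 9 and 22 had differences of 0.38, 0.19, 0.17 and 0.05. With loess, 0 regions of the interval were called lower by limma (6 at an unadjusted p under 0.05) and 3 were called higher, where 7.16% and 11.2% of all regions were. With quantile normalization 2 were called lower and 2 higher, where 14.7% and 9.05% of all regions were.

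The 6 regions that rose on the log2 ratio all had low values, near or below the array median. None of the 6 passed limma on the linear position (adjusted p from 0.125 to 0.685). There the differences of regions 2, 11 and 12 were negative, at -0.0144, -0.00765 and -0.0118, and those of regions 26, 40 and 44 positive. By percentile within the array only region 26 passed (adjusted p = 0.0458). Region 44 (chr18:30945936-30946345), the lowest of the interval, had -2.19, -0.84, -2.23 and -1.61 in normal glands 1 to 4 and ran from -1.22 through a median of -0.48 to 0.89 in the carcinomas. Carcinomas lay above all normal glands in 15 of 16 arrays, and the difference was 1.35 ± 0.27 (SE, adjusted p = 0.00041). None of its 4 probes had Cy5 well above background on all normal glands. Region 26 (chr18:30543273-30543831), just before stretch 3, rose by 0.70 ± 0.22 (SE, adjusted p = 0.016), with 3 of its 7 probes well above background on any normal gland. Regions 12 (chr18:29500727-29501306) and 11 (chr18:29492995-29493376) at the end of stretch 1 rose by 0.62 and 0.46 (adjusted p = 0.039 and 0.048), although region 11 turned to -0.09 with loess and -0.05 with normexp background correction. Cy5 was well above background on all normal glands for 0 of 6 probes of region 12 and 1 of 4 of region 11. The only probe of region 11 that limma called had a difference of -0.54 (adjusted p = 0.039). The 2 regions with the most probes, 19 each, also rose: region 40 (chr18:30714255-30716272) by 0.40 (adjusted p = 0.015) and region 2 (chr18:29199981-29201828) by 0.33 (adjusted p = 0.035), the latter turning to -0.07 with loess.

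The count of rises depended on the background correction and on single arrays. With normexp background correction limma called 0 regions higher (1 at an unadjusted p under 0.05) beside 23 lower, where 3.47% and 21.5% of all regions were, and without normal gland 1 or normal gland 3 it called 2 and 3 higher.

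**Figure D3:**
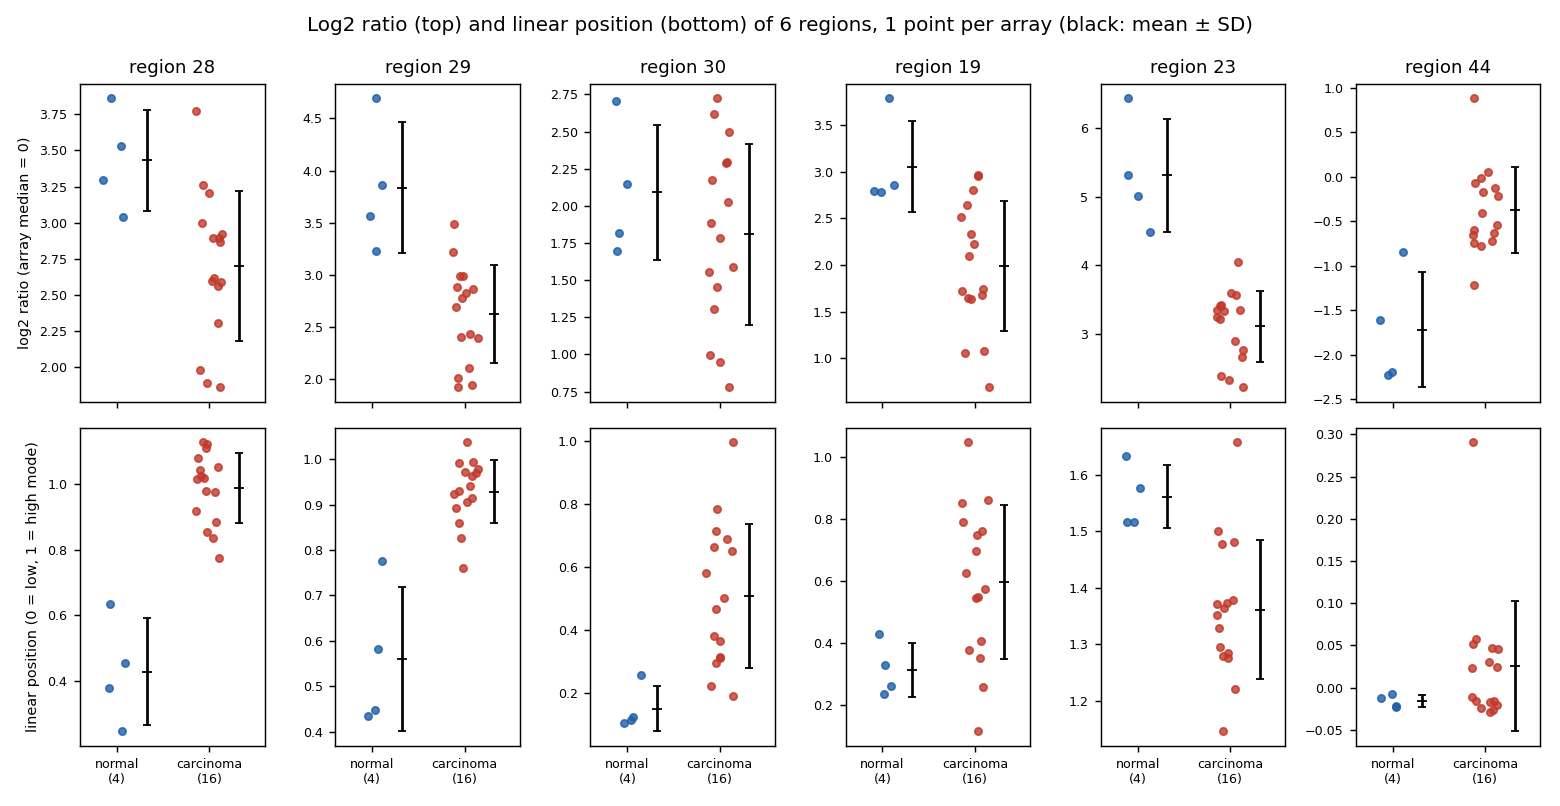
Log2 ratio (top) and linear position (bottom) of regions 28, 29, 30, 19, 23 and 44, 1 point per array for 4 normal glands (blue) and 16 carcinomas (red), with mean ± SD in black and separate axes per panel. Region 28 has lower carcinoma values on the log2 scale and higher ones on the linear position; after loess both orders turn (log2 difference 0.13, difference in linear position -0.293).

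The linear position fixes, on each array, only the most frequent value of all regions and that of the highest regions. Whether levels between these points still carry the difference in range was not tested. Of all regions with a mean position from 0.2 to 0.8, 52.1% were called higher and 1.79% lower on this scale. By percentile within the array the shares were 16.6% and 9.37%. In the interval, calls on the linear position ran the other way from those on the log2 ratio. Of the 44 regions 12 rose, or 27.3%, and 2 fell, against 17.3% higher and 4.34% lower over all regions and 51 and 11 of 343 in the rest of the chromosome. The median difference was 0.0317 in the interval and 0.0133 over all regions. Only region 28 had all 16 carcinomas above all 4 normal glands, which held for 9.18% of all regions.

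Most of these rises lay in stretch 3: 9 of 13 regions of stretch 3 rose, 2 of 11 in stretch 2 and 1 of 13 outside the stretches, while limma called 0 of 7 in stretch 1 (0 at an unadjusted p under 0.05). By level, of the 9 interval regions with a mean position from 0.2 to 0.8, 6 rose, or 66.7%, beside 52.1% of all regions of that level and 51.5% in the rest of chromosome 18. Of the 18 regions over 0.8, 5 rose and 2 fell, beside 23.9% and 13.3% of all regions of that level. The direction in stretch 3 depended on the scale. In log2 ratio 10 of its 13 regions fell, where 23.7% of all regions did. By percentile within the array 2 of the 13 were called higher, where 8.68% of all regions were, and the median difference was 0.127.

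Region 28 (chr18:30591410-30591764), the second of stretch 3, had the largest rise. Its linear position was 0.246, 0.635, 0.455 and 0.377 in normal glands 1 to 4 and ran from 0.775 through a median of 1.02 to 1.13 in the carcinomas. The groups did not overlap, and the difference was 0.561 ± 0.0643 (SE, adjusted p = 1.2e-05), but loess turned it to -0.293 (adjusted p = 0.48). Its percentile within the array rose from 86.9 to 94.0 (adjusted p = 0.0073). On the log2 ratio the same region fell, by 0.73 (adjusted p = 0.034), but quantile normalization gave 0.49 there.

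Region 29 (chr18:30600962-30601149), 9197 bases further on, had 0.447, 0.775, 0.581 and 0.434 in the normal glands and ran from 0.760 through 0.936 to 1.04 in the carcinomas, 15 of which lay above all normal glands. The difference was 0.370 ± 0.0494 (SE, adjusted p = 5.7e-05), and the percentile rose from 88.8 to 92.5 (adjusted p = 0.047). Its log2 ratio fell by 1.22 (adjusted p = 0.00090), while loess and quantile normalization gave 0.59 and 0.21.

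Region 30 (chr18:30616892-30617129) lay lower and varied more. It had 0.104, 0.258, 0.117 and 0.125 in the normal glands and ran from 0.191 through 0.486 to 0.997 in the carcinomas, 14 of which lay above all normal glands. The difference was 0.358 ± 0.114 (SE, adjusted p = 0.033), the percentile moved from 82.0 to 81.8 (adjusted p = 0.97), and loess turned the difference to -0.67. The other regions of stretch 3 that rose were 27, 33, 34, 35, 36 and 37, by 0.157 in region 36 to 0.315 in region 35. Those of stretch 2 were region 14 (chr18:29676920-29677481) by 0.288 and region 16 by 0.337, and region 3 (chr18:29309493-29309858) outside the stretches rose by 0.0471, from 0.0360 to 0.0831. Region 3 went the other way in log2 ratio, from 0.588 to 0.285, and in percentile, from 68.7 to 62.5. Neither of these passed the limma test (adjusted p = 0.054 and 0.11).

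The 2 falls on the linear position were at the end of stretch 2. Region 23 had 1.56 ± 0.0555 in the normal glands (SD, n = 4) and 1.36 ± 0.123 in the carcinomas (SD, n = 16), which differ by -0.199 (adjusted p = 0.031), and region 22 from 1.12 to 1.04 (adjusted p = 0.048). Both stayed above 1 in the mean. Both turned positive after normexp, at 0.244 and 0.0485, and without any 1 of the 4 normal glands limma called 0 regions lower (2 to 4 at an unadjusted p under 0.05); without any 1 of carcinomas 1, 5, 7 or 9 to 14 it called 1.

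On the percentile within the array, a scale added after the data were seen, 3 regions rose: regions 26, 28 and 29. Limma called 0 lower (3 at an unadjusted p under 0.05), with 8.68% of all regions called higher and 11% lower on that scale. The count of rises on the linear position was 5 without normal gland 1, where 6.97% of all regions rose. It was 1 after loess, beside 9 falls, where 15.9% of all regions rose and 13.1% fell, and 6 after normexp, where 12% rose. Within the later of the 2 scan days that held both groups, with 2 normal glands and 8 carcinomas, 8 regions rose, where 3.42% of all regions did. Within the other, with 2 and 6, limma called 0 (6 at an unadjusted p under 0.05), where 2.74% of all regions rose. With scan day as a block 13 rose, where 21.2% of all regions did.

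**Figure D4:**
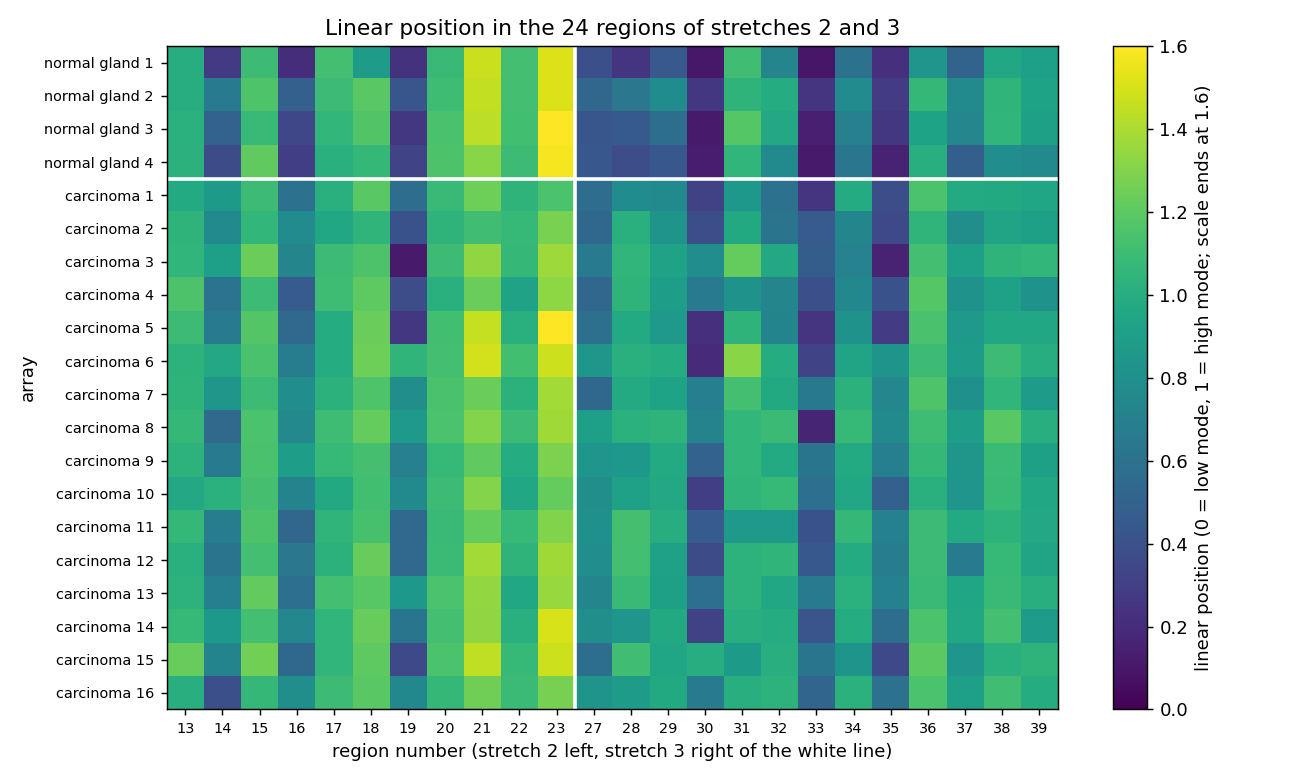
Linear position of the 24 regions of stretches 2 and 3 (columns) on 4 normal glands and 16 carcinomas (rows), with colour from 0 to 1.6 and higher values shown at 1.6. Low cells (dark) alternate with high ones along both stretches in the normal glands. Regions 19, 30 and 35 have the largest SD over the carcinomas among these 24, at 0.250, 0.228 and 0.201.

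The 16 carcinomas did not share 1 profile along the stretches. Region 19 (chr18:29704019-29704467) had the largest SD of log2 ratio over the carcinomas, 0.70, and a linear position from 0.114 in carcinoma 3 to 1.05 in carcinoma 6, around normal glands at 0.234, 0.428, 0.261 and 0.327. Its mean linear position was 0.312 in normal glands and 0.597 in carcinomas, which did not pass the test (adjusted p = 0.10). In region 30 carcinoma 6 was the lowest at 0.191 and carcinoma 15 the highest at 0.997. In region 35 carcinoma 3 was the lowest at 0.151 and carcinoma 6 again the highest at 0.827. In region 33 carcinoma 8 was the lowest at 0.166 and carcinoma 13 the highest at 0.659. The SD of linear position over the carcinomas was 0.250, 0.228, 0.201 and 0.154 in regions 19, 30, 35 and 33. Its median over all regions of the array with a mean position from 0.2 to 0.8 was 0.193. The probe least often above background in regions 19, 30 and 35 had Cy5 well above background on 10, 11 and 8 of the 16 carcinomas. Region 25, the last before the gap, lay at or below 0.139 in the normal glands and at or below 0.536 in 15 carcinomas, while carcinoma 15 reached 1.04.

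The median pair of regions within a stretch moved together only weakly from carcinoma to carcinoma. The median Pearson correlation of linear position over the 16 carcinomas was -0.03 for the 21 pairs of stretch 1, 0.13 for the 55 pairs of stretch 2 and 0.15 for the 78 pairs of stretch 3. Single pairs ranged widely. By percentile they ran from -0.62 to 0.68 in stretch 1, -0.70 to 0.52 in stretch 2 and -0.35 to 0.79 in stretch 3. In stretch 1, 6 of 7 regions had normal gland means under a linear position of 0.2. These points share arrays and normalisation, and the values are a description.

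Per array, the mean linear position of stretch 3 was 0.616 ± 0.0829 in the normal glands (SD, n = 4; 0.547 to 0.718) and 0.845 ± 0.0639 in the carcinomas (SD, n = 16; 0.731 to 0.924). The groups did not overlap but came as close as 0.718 and 0.731. Of its single regions only region 28 had all 16 carcinomas above all 4 normal glands, which held for 9.18% of all regions. In log2 ratio the order was reversed, with stretch 3 means of 3.75 in the normal glands and 2.44 in the carcinomas. Stretch 2 averaged 0.965 ± 0.0463 and 1.02 ± 0.0416 in linear position, and stretch 1 averaged 0.206 ± 0.0138 and 0.190 ± 0.0170, with overlap in both. The number of interval regions over 0.5 was 16, 21, 18 and 15 in normal glands 1 to 4 and ran from 21 through a median of 24 to 26 in the carcinomas.

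Against the rest of the chromosome, the interval's excess in mean log2 ratio was 1.69 ± 0.25 in the normal glands (SD, n = 4; 1.497 to 2.039) and 1.02 ± 0.20 in the carcinomas (SD, n = 16; 0.73 to 1.33). On the linear position the excess was 0.337 ± 0.0294 and 0.356 ± 0.0228, and the groups overlapped. The gap of -0.67 between the groups in log2 excess became -0.02 with loess and -0.01 with quantile normalization. Mean percentile of the interval was 66.8 ± 0.795 in the normal glands and 68.5 ± 1.41 in the carcinomas.

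Input DNA of the interval, as mean log2 Cy3 signal relative to the rest of chromosome 18 with the normal gland mean at 0, lay between -0.03 and 0.01 in the normal glands. In the carcinomas it averaged -0.11 ± 0.13 (SD, n = 16), from -0.34 in carcinoma 4, which had the lowest share of interval probes with Cy3 well above background at 82.9%, to 0.12 in carcinoma 16. The Cy5 signal measured the same way averaged -0.71 ± 0.19 in the carcinomas. The part of the input signal in the group differences was not tested.

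**Figure D5:**
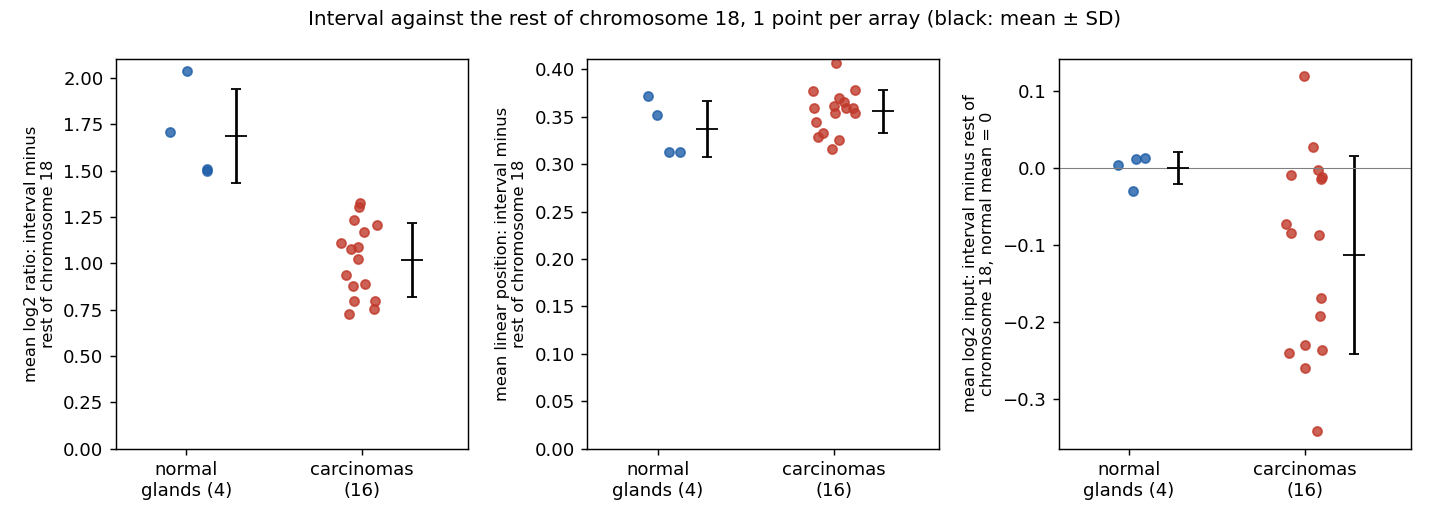
Mean of the interval minus mean of the rest of chromosome 18 on each array, for log2 ratio (left), linear position (middle) and log2 input signal with the normal gland mean at 0 (right); 1 point per array, 4 normal glands (blue) and 16 carcinomas (red), black lines mean ± SD. The log2 excess separates the groups, at 1.497 to 2.039 against 0.73 to 1.33, and the other 2 panels do not; with loess the group difference in log2 excess is -0.02.

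Single probes were compared in the same way. Of the 283 probes tested, 146 fell on the log2 ratio and 19 rose, beside 24.8% lower and 9.92% higher of all 91599 probes. With loess 16 fell and 20 rose, where 6.43% and 10.3% of all probes did. The median probe difference was -0.78 in the interval and -0.02 over the array. Without normal gland 1 the count of rises was 9.

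The 3 largest fitted probe falls were in regions of stretches 2 and 3. A_45_P11486304 (chr18:30630951-30631010, region 31) had 5.28 ± 0.92 in the normal glands (SD, n = 4) and 2.45 ± 1.19 in the carcinomas (SD, n = 16), which differ by -2.83 (adjusted p = 0.00057). A_45_P11486389 (chr18:30641056-30641115, region 32) and A_45_P11482963 (chr18:29692828-29692872, region 17) fell by 2.45 and 2.44. In all 3 probes the 16 carcinomas lay below all normal glands. Cy5 of the first was well above background on 10 of 16 carcinomas, of the second on 12 and of the third on 16, so the carcinoma levels of the first 2 probes rest partly on dim spots.

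The 3 probes with the largest fitted rises were at the dim end. They were A_45_P26145682 (chr18:30946286-30946345, region 44), A_45_P26138685 (chr18:29154530-29154589, region 1) and A_45_P11485720 (chr18:30543720-30543779, region 26), with adjusted p = 7.0e-05, 0.019 and 0.018. Cy5 of the first was well above background on 1 of 4 normal glands and 8 of 16 carcinomas. Cy5 of the other 2 was not well above background on any normal gland and was so on only 3 and 4 carcinomas. Set against a bound, on each normal gland the higher of the probe's own Cy5 signal and the lowest signal well above background there, none of the 3 carcinoma means was higher (ratios of 0.969, 0.459 and 0.419), so no size is given for these rises. For this bound alone, Cy5 was taken after loess within each array and quantile normalization between arrays of the mean intensity of both channels. It is therefore not on the scale of the other values.

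The 17 small runs held 22 probes with normal gland means from 2.54 to 5.10 on the log2 scale. Of these 22 probes 21 fell, where 24.8% of all 91599 probes did. The exception, A_45_P11483382 (chr18:29747598-29747642) in stretch 2, had the lowest of these means and a difference of -0.45 (adjusted p = 0.16). Among regions of the whole array with a mean position over 0.8, 97.3% were called lower on this scale. The 3 lone probes of the wide gap, at 30111905, 30287005 and 30318219, had normal gland means of 4.63, 5.06 and 4.87 and carcinoma means of 2.76, 2.98 and 3.06. The probe at 30318219 had no value in normal gland 4, so its normal gland mean covers normal glands 1 to 3.

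Probes within a region did not always have one level. Normal gland means of the 3 probes of region 36 spanned 0.082 on the log2 scale and those of region 23 spanned 0.14. In region 41 (chr18:30854994-30855945) 6 probes ran from -1.46 to 3.26, and in region 8, the low neighbour of region 9, 6 probes ran from -1.11 to 2.83, so the mean of such a region stands for probes that disagree.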

How the data were processed

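The scanner software was version 10.7.3.1 of Agilent Feature Extraction, with probe positions of rn4, per the file headers. Processed signals, as deposited, are intensities after background subtraction and a linear dye factor per channel, and the deposited log ratio is the log10 of Cy5 over Cy3. The authors' value table holds that ratio as log2, not centred, equal to the scanner values to within 7.94e-07.

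Here log2 of processed Cy5 over Cy3 was taken, 1565 control spots and 187 values marked non-uniform or outlying were left out (1 in the interval), a probe needed Cy3 well above background on 10 or more arrays, and arrays were centred on their median, which hides any shift common to the whole array. A region's value is the mean of its probes. Tests used limma 3.58.1 (R 4.3.3) over all regions or probes with Benjamini-Hochberg adjustment. The region test was tried on simulated log2 ratios with the same noise for all regions and both groups, which the data do not have. The probe test was not tried on simulated data. Figures used matplotlib 3.10.9.

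Named regions were up to 5 largest rises and 5 largest falls in log2 ratio past the threshold, up to 3 of each in linear position, the extremes in normal gland mean, carcinoma SD and probe number. Named probes were the 3 largest rises and falls past the threshold and those of small runs; other regions were named after their values were seen. The interval, lists and tests were chosen with earlier results of these data known. Probe sequences and an rn4 genome were not used here.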

Additional observations from a re-analysis of the deposited data

Results flagged for a closer look

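Among 41 sets of 4 normal gland values in the interval, 2 had 1 gland far from the other 3, by a gap that took more of the whole range than Dixon's critical value allows; chance marks about 1 in 20 such sets. In region 30 (chr18:30616892-30617129) normal gland 2 had a linear position of 0.258, where the nearest gland had 0.125 and the lowest 0.104. In region 19 (chr18:29704019-29704467) normal gland 1 had a log2 ratio of 3.79, where the other glands lay between 2.78 and 2.86. Normal gland 1 also had the highest upper mode of the 4, at 5.84 on the log2 scale over all regions.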

How the results depend on the processing

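Calls are limma calls among 44 regions or 283 probes, counts of 0 are followed by the count at an unadjusted p under 0.05, and the cause of each change was not tested unless the setting itself uses fewer arrays, regions or a stricter threshold. Regions higher in log2 ratio (6) became 3 with loess, 0 (1) with normexp, 2 each with quantile normalization, scaling by median absolute deviation, the authors' table left uncentred and both channels above background, 1 at an adjusted p under 0.01, 0 (5) within scan day 2 and 1 within day 3. Regions lower in log2 ratio (23) became 0 (6) with loess, 2 with quantile normalization, 40 over runs of any size (11.4% higher and 23.5% lower of all such runs) and 11 with at least 5 probes. Rises in linear position (12) became 1 after loess, 6 after normexp, 6 at 0.01, 0 (6) within day 2, 7 on a log scale between the modes and 3 by percentile. Falls in linear position (2) became 9 after loess, 0 (2) after normexp, 4 over runs of any size, 0 (5) at 0.01, 0 (1) within day 2, 0 (1) within day 3, 1 with slide as a random block, 0 (0) on the log scale, 6 with the 5th and 95th percentiles in place of the modes and 0 (3) by percentile. Probes higher (19) became 0 (8) with normexp, 8 at 0.01, 3 within day 2 and 7 within day 3, and probes lower (146) became 16 with loess. The group difference in log2 excess over the rest of the chromosome (-0.67) became -0.022 with loess, -0.0053 with quantile normalization and -0.38 with scaling by median absolute deviation. Leaving out 1 array at a time gave 2 to 8 regions higher and 20 to 25 lower in log2 ratio, 5 to 13 higher and 0 to 2 lower in linear position, and 9 to 22 probes higher and 129 to 148 lower. Whether replicate numbers 1 to 4 pair samples is not given by the labels, and correlations of 4 numbers cannot decide it. Same-numbered deviations correlated at 0.363, -0.164, 0.0461 and -0.146. The largest correlation with another number was 0.184, 0.226, 0.133 and 0.428. With the replicate block, linear position gave 0 (12) higher and 0 (4) lower, against 3 and 1 in the same 8 arrays without it, and the log2 ratio gave 5 and 21, against 6 and 21. Signs of called regions turned with loess in log2 ratio at region starts 29492995 (-0.0903), 29749393 (0.38), 29730392 (0.19), 29466320 (0.17), 29736314 (0.0481), 30591410 (0.13), 30600962 (0.59) and 29199981 (-0.0657). They turned in linear position after loess at 29749393 (0.162), 30591410 (-0.293) and 30616892 (-0.666). They turned with normexp at 29492995 in log2 ratio (-0.0461) and at 29749393 (0.244) and 29736314 (0.0485) in linear position, with quantile normalization at 30591410 (0.49) and 30600962 (0.21), on the log scale at 29749393 (0.0041), and by percentile at 30616892 (-0.244). The other named values kept their direction, 578 on the same side of the threshold and 144 no longer past it. Cy5 near background limits the low regions, and the number of normal glands, 4, limits the precision.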
